A study of Mus musculus with 6 samples.

Results

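Expression of 9 genes of the plasminogen system, blood clotting and the extracellular matrix was followed in leukocytes of the mouse brain after a transient stroke: Plaur, Plau, Thbs1, F3, F10, F13a1, Adamts1, Fn1 and Vcan. They were taken by symbol, and all 9 were found among the 31053 genes of the count tables, of which 20875 had at least 1 unique molecular identifier (UMI, 1 captured transcript). The data are 6 droplet single-cell RNA libraries of living CD45+ cells sorted from perfused brains of C57BL/6 mice. Mice were Cd300a-fl/fl Lyz2-cre (called Lyz2-cre) or Cd300a-fl/fl (called fl/fl). Every mouse carried the floxed allele of Cd300a, which encodes an inhibitory receptor of myeloid cells. Brains were taken from naive mice, or 1 h or 3 h after the start of reperfusion that followed 60 min of occlusion of the middle cerebral artery (MCAO) by an intraluminal filament. Cre from the Lyz2 locus is active in the myeloid lineage, in which its efficiency differs between cell types. Each library pooled 3 brains, and each of the 6 combinations of genotype and time had 1 library. No combination therefore had a replicate, and the difference between genotypes at 1 time could not be tested.

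As background, urokinase (Plau) bound to its receptor (Plaur) turns plasminogen into plasmin, the protease that dissolves fibrin. Tissue factor (F3) starts clotting by activating factor X (F10), which leads to thrombin and fibrin, and the A subunit of factor XIII (F13a1) cross-links that fibrin. Fibronectin (Fn1) and versican (Vcan) are large matrix proteins, thrombospondin 1 (Thbs1) is a secreted glycoprotein that binds matrix, CD36 and CD47, and Adamts1 is a secreted metalloprotease that can cut versican.

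After filtering and the removal of likely doublets, 47108 cells were used, 6719 to 9623 per library, with a median of 3896 to 5220 UMIs per cell. The libraries held 35479437 to 48478866 UMIs in all, and any pair of libraries shared 12 to 30 cell barcodes. Clusters made without the 9 genes gave 37305 microglia-like, 3774 neutrophil-like, 2187 monocyte-like, 1202 T cell-like, 863 B cell-like, 525 natural killer cell-like, 472 border-associated macrophage-like, 446 progenitor-like and 188 conventional dendritic cell-like cells. The 11 microglia markers, the 13 monocyte markers and the 12 neutrophil markers each had UMIs in all 6 libraries of their own class. By the edgeR test described below, Cd300a was lower in Lyz2-cre than in fl/fl in neutrophil-like cells (log2 fold change −3.87, adjusted p = 1.96e-05). It was lower by less in monocyte-like cells (−1.12, adjusted p = 0.0103) and least in microglia-like cells (−0.38, adjusted p = 0.0333). Lyz2 itself was lower in microglia-like (−8.68, adjusted p = 6.20e-09) and neutrophil-like cells (−6.93, adjusted p = 0.000411). In monocyte-like cells its value of −9.02 did not pass (adjusted p = 0.890).

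All 9 genes are protein coding. On GRCm38, Plaur lies at chr7:24462484-24475968, Plau at chr14:20836660-20843385, Thbs1 at chr2:118111876-118127133, F3 at chr3:121723537-121735048 and F10 at chr8:13037308-13056676, all on the plus strand. On the minus strand lie F13a1 at chr13:36867178-37050244, Adamts1 at chr16:85793827-85803113, Fn1 at chr1:71585520-71653200 and Vcan at chr13:89655312-89742509. Thbs1, F13a1, Fn1 and Vcan overlap annotated genes on the other strand (Gm29233 with Thbs1, Gm49144 and Gm30489 with F13a1, Apol7d with Fn1, Gm16318 and Gm4117 with Vcan). Whether counting used the strand is not given in the sources used here, so reads of these pairs could not be told apart.

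Promoter sequences from RefSeq (GRCm38.p6, 250 bases before to 50 after the gene start, 5′ to 3′ on the gene's own strand) were matched for 6 of the 9 genes. Those of Plaur, F3, F10 and Vcan are shown. They were chosen because both Plaur and F3 exceeded naive levels at 3 h in microglia-like cells, and F10 and Vcan in monocyte-like cells. Capitals mark matches to the motifs searched on both strands.
Plaur (chr7:24462233-24462532, plus strand): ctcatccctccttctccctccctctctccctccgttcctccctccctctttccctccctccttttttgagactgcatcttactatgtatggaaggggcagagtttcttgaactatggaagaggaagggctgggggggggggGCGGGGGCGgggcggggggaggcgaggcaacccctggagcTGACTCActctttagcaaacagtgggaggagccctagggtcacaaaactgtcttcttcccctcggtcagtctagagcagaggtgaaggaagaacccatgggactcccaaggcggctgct
F3 (chr3:121723287-121723586, plus strand): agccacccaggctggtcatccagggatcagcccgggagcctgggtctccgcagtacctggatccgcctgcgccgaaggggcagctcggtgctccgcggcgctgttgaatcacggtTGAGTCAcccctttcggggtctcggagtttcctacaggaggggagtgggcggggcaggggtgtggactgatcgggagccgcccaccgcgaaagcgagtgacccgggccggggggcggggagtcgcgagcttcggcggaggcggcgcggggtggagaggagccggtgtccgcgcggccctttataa
F10 (chr8:13037058-13037357, plus strand): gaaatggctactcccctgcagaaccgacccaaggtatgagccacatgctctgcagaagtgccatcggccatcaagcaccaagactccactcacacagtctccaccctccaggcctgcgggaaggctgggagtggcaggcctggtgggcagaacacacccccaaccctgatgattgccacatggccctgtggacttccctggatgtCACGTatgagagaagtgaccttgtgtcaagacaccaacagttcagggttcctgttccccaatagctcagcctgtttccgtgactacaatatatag
Vcan (chr13:89742463-89742762, minus strand): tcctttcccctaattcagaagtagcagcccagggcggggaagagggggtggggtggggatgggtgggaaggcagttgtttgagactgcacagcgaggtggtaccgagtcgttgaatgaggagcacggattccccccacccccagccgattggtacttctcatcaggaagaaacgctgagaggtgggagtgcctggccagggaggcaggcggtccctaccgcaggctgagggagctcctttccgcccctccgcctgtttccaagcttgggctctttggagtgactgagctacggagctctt
The AP-1 motif (TGAGTCA or TGACTCA) begins 69 bases before the start of Plaur, at offset −69, and at −135 in F3. It was present in 5.20% of the 32851 promoters. The Plaur promoter also has the EGR motif (GCGTGGGCG or GCGGGGGCG, 3.47% of promoters) at −109, and F10 has the hypoxia element (ACGTG, here read as CACGT on the other strand, 19.6% of promoters) at −45. The letters of the CRE motif (TGACGTCA, 1.79%), the NF-kB motif (0.411%) and the heat shock element (0.603%) were found in none of the 7 entries of the 6 genes, and those of F13a1, Vcan and Adamts1 held none of the 6 motifs. A match describes the letters and does not show that a factor binds. Only exact matches were counted, and the NF-kB pattern was a strict one, met by 0.411% of promoters. Near matches were not searched in F3 or the other genes. The lack of a match therefore does not show that a promoter has no site for that factor.

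Levels are given as CPM, a gene's count of UMIs per 1000000 UMIs of all cells of 1 class in 1 library, with exact 95% Poisson intervals that cover counting error only. The 9 genes divided by cell class. Of all UMIs in the cells used, microglia-like cells held 97.2% for Plau, 97.7% for Adamts1 and 90.1% for F3. Monocyte-like cells held 96.8% for Vcan, 86.4% for F10, 81.1% for Fn1 and 77.9% for F13a1. Thbs1 was shared between monocyte-like (52.2%) and neutrophil-like cells (39.9%), and Plaur between microglia-like (46.9%), neutrophil-like (28.7%) and monocyte-like cells (18.3%). These shares depend on the number of cells in each class and on their depth as well as on the level per cell.

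**Figure D1:**
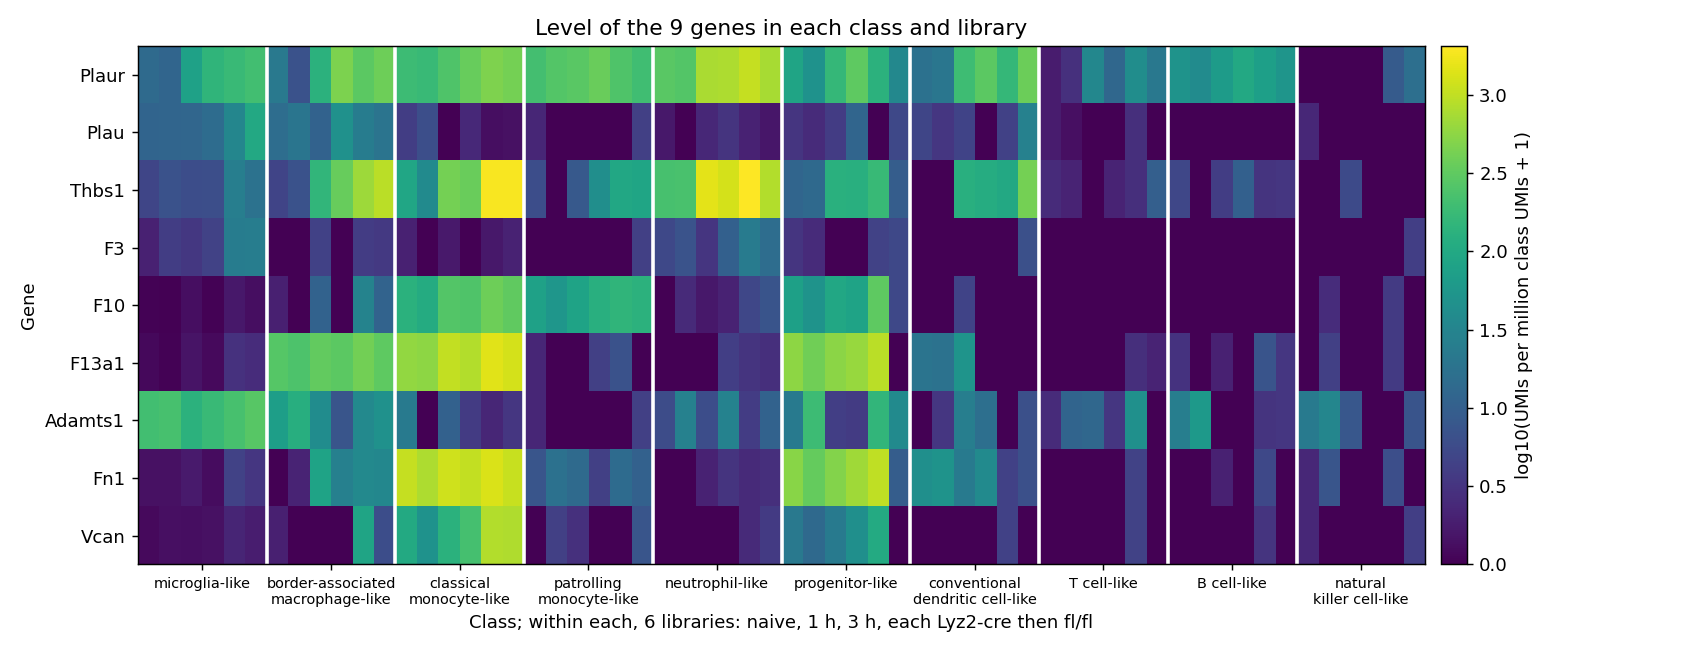
Level of each of the 9 genes (rows, colour on a log10 scale of CPM + 1) in 10 classes or sub-classes of cells, each with 6 libraries in the order naive, 1 h and 3 h, Lyz2-cre before fl/fl at each time. Plau is bright in microglia-like and border-associated macrophage-like cells, F3 in microglia-like and neutrophil-like cells, and Adamts1 in microglia-like cells. F10, F13a1 and Fn1 are bright in classical monocyte-like and progenitor-like cells, Vcan in classical monocyte-like cells, and Thbs1 in classical monocyte-like and neutrophil-like cells. F10 is also present in patrolling monocyte-like cells, and F13a1 and Thbs1 in border-associated macrophage-like cells.

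Times were compared with edgeR's quasi-likelihood test on UMIs summed per library and class, with genotype in the model, so that each time had 2 libraries. The 2 residual degrees of freedom hold both the spread between pools and any difference in time course between the genotypes. P-values (adjusted over all genes tested in a class) rest on that spread only in part. The test draws the spread of each gene toward a prior taken from all genes of the class. This prior carried 8.08 degrees of freedom (microglia-like), 8.57 (monocyte-like) and 9.93 (neutrophil-like). A fit that leaves out 1 library has 1 residual degree of freedom and a single library at that time. That library is then assumed to vary like those of the other times, so a call gained in this way does not show that replicates of that time are alike. A filter on low counts left 8 of the 9 genes for the test in microglia-like cells (not F10), 7 in monocyte-like cells (not Plau or F3) and 4 in neutrophil-like cells (Plaur, Thbs1, F3 and Adamts1). At 1 h against naive, 2 of 8 genes passed an adjusted p of 0.05 in microglia-like cells, where 26.8% of all genes tested passed (14% higher and 12.9% lower). There were 3 of 7 in monocyte-like cells (1.62% of all genes, 0.937% higher and 0.681% lower) and 2 of 4 in neutrophil-like cells (0.758% of all genes, all of them higher). At 3 h against naive, 7 of 8 passed in microglia-like cells (48% of all genes, 24.5% higher and 23.5% lower). There were 6 of 7 in monocyte-like cells (26.9%, 14.2% higher and 12.6% lower) and 3 of 4 in neutrophil-like cells (27.9%, 17.3% higher and 10.6% lower). Between 3 h and 1 h, 6 of 8 passed in microglia-like cells (47.4% of all genes, 25.3% higher and 22.1% lower). There were 6 of 7 in monocyte-like cells (18.2%, 10.3% higher and 7.92% lower) and 1 of 4 in neutrophil-like cells (23.5%, 14.4% higher and 9.02% lower). All of these changes were increases but 1, Adamts1 in microglia-like cells at 1 h. The median log2 fold change of all genes lay between −0.07 and 0.03 in these 9 comparisons.

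**Figure D2:**
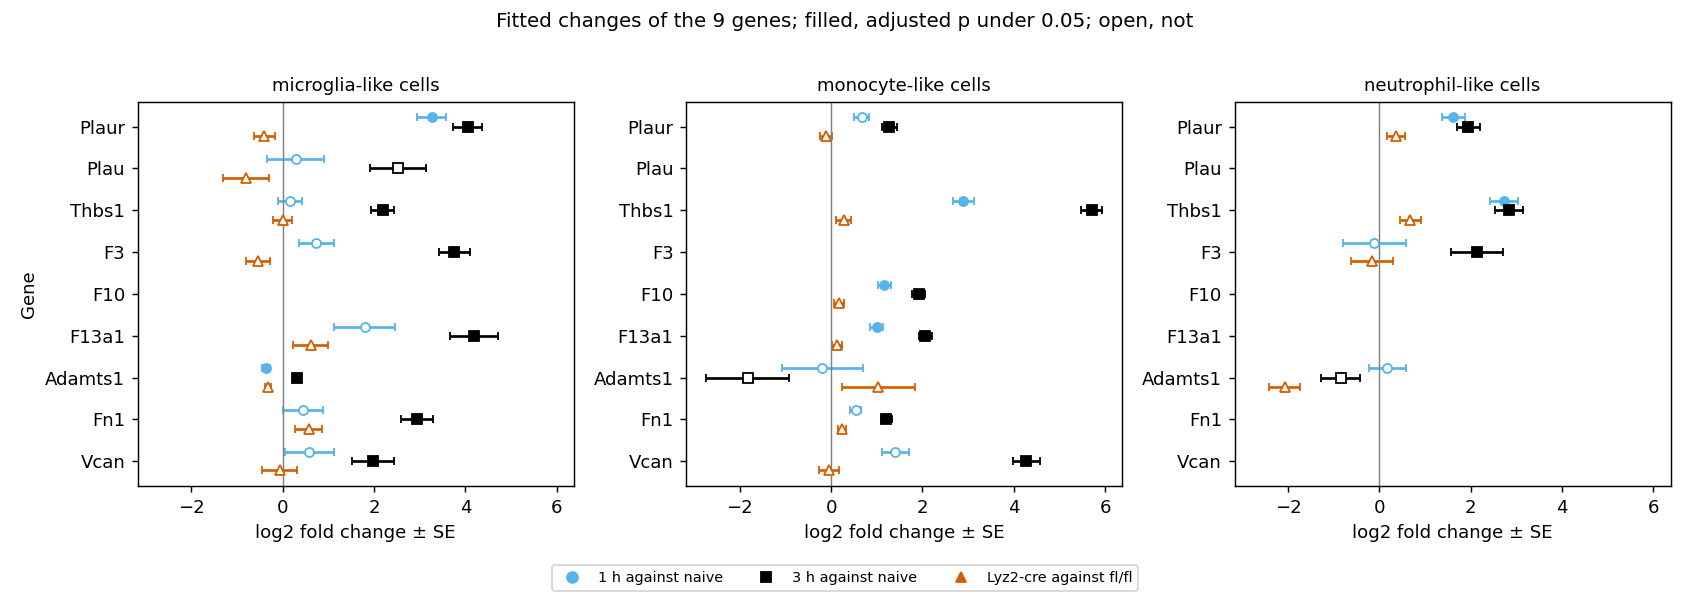
Fitted log2 fold change with its standard error (horizontal axis) of the 9 genes (rows) in microglia-like, monocyte-like and neutrophil-like cells, for 1 h against naive, 3 h against naive and Lyz2-cre against fl/fl. Filled symbols have an adjusted p under 0.05, rows without a symbol did not pass the filter on low counts, and no genotype symbol is filled.

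Plaur, the urokinase receptor, rose in microglia-like, neutrophil-like and monocyte-like cells. In Lyz2-cre microglia-like cells its level was 13.04 CPM in naive brains, 78.3 CPM at 1 h and 175 CPM at 3 h, against 10.9, 145 and 205 CPM in fl/fl. Both libraries of each later time lay above both naive libraries, and at 1 h the Lyz2-cre interval (75.1 to 81.6 CPM) lay below the fl/fl interval (141 to 149 CPM). The fitted difference was 3.27 ± 0.32 on the log2 scale (± SE) at 1 h against naive (adjusted p = 0.00938) and 4.05 ± 0.32 at 3 h against naive (adjusted p = 0.00275). The step between 3 h and 1 h (0.78 ± 0.28, adjusted p = 0.10) did not pass. Both calls were lost without Lyz2-cre 3 h (3.26 at 1 h, adjusted p = 0.192, and 3.98 at 3 h, adjusted p = 0.171) and without fl/fl 3 h (3.26 at 1 h, adjusted p = 0.191, and 4.11 at 3 h, adjusted p = 0.179). The step between 3 h and 1 h passed without fl/fl naive (0.76, adjusted p = 0.0118), without Lyz2-cre naive (0.76, adjusted p = 0.0126) and without fl/fl 1 h (1.20, adjusted p = 0.00158).

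More microglia-like cells had a Plaur UMI after reperfusion: in Lyz2-cre libraries 5.63% in naive brains, 14.5% at 1 h and 25.3% at 3 h, against 4.48%, 24.7% and 30.3% in fl/fl libraries. With every cell thinned to 1000 UMIs the shares kept that order, at 1.12%, 5.86% and 10.7% in Lyz2-cre and 0.996%, 9.73% and 12.6% in fl/fl. Over all libraries 17.7% of microglia-like cells had a Plaur UMI (6.92% thinned), against 3.33% of T cell-like cells (1.02% thinned). The T cell-like share was not constant over libraries, from 0.481% in Lyz2-cre naive to 11.5% in Lyz2-cre 3 h brains. Whether the increase differed between these classes was not tested. The median depth was 3903 to 5194 UMIs per microglia-like cell and 4492 to 5219.5 per T cell-like cell, depending on the library.

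In neutrophil-like cells Plaur was at 294 CPM in naive, 772 CPM in 1 h and 1035 CPM in 3 h Lyz2-cre brains, against 263, 790 and 744 CPM in fl/fl brains. All 4 libraries of the later times lay above both naive libraries, and at 3 h the Lyz2-cre library was above the fl/fl library. Against naive brains the log2 fold change was 1.62 ± 0.25 at 1 h (adjusted p = 0.00893) and 1.95 ± 0.25 at 3 h (adjusted p = 0.000211). The 1 h call was lost without fl/fl naive (1.59, adjusted p = 0.333) and without Lyz2-cre naive (1.69, adjusted p = 0.0992). In monocyte-like cells Plaur was at 196, 261 and 452 CPM in Lyz2-cre naive, 1 h and 3 h brains, against 206, 354 and 396 CPM in fl/fl. The difference at 3 h against naive was 1.28 ± 0.16 (log2, adjusted p = 0.000308), with both 3 h libraries above the other 4. The 1 h difference of 0.67 ± 0.17 did not pass (adjusted p = 0.0710), although it did without Lyz2-cre 1 h (0.92, adjusted p = 0.00566) and without either 3 h library (0.67 in both, adjusted p = 0.0304 and 0.0334). The step between 3 h and 1 h (0.61 ± 0.16, adjusted p = 0.0242) was lost without Lyz2-cre 1 h (0.36, adjusted p = 0.241), without Lyz2-cre 3 h (0.39, adjusted p = 0.384) and under DESeq2 (adjusted p = 0.0636).

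Plau, urokinase itself, was counted mostly in microglia-like cells, the largest class, where it stayed low until 3 h. Its level there was 10.6, 11.3 and 32.0 CPM in Lyz2-cre naive, 1 h and 3 h brains, against 11.1, 13.8 and 100 CPM in fl/fl. Both 3 h libraries stood above the other 4, and the fl/fl 3 h library (2084 UMIs, interval 95.9 to 105 CPM) was far above the Lyz2-cre 3 h library (941 UMIs, 29.999 to 34.1 CPM). The log2 difference of 2.53 ± 0.61 at 3 h against naive did not pass (adjusted p = 0.0719), nor did 2.24 ± 0.60 at 3 h against 1 h (adjusted p = 0.0866). The size turned on the 3 h libraries: the 3 h difference from naive was 1.69 without fl/fl 3 h and 3.23 without Lyz2-cre 3 h. Both of these values passed, but with 1 library at 3 h the distance between the 3 h libraries no longer enters the spread. DESeq2 with all libraries gave 2.54 (adjusted p = 0.000214). At 1 h the difference was 0.29 ± 0.62 (adjusted p = 0.791). It passed without fl/fl 3 h (0.31, adjusted p = 0.0345) and without Lyz2-cre 3 h (0.31, adjusted p = 0.0175). Of microglia-like cells at 3 h, 6.89% in Lyz2-cre and 14.4% in fl/fl had a Plau UMI (2.53% and 6.13% thinned), against 0.25% of T cell-like cells over all libraries. The T cell-like share was at most 1.04% in any library. Border-associated macrophage-like cells also held Plau in every library, at 14.1, 10.005 and 23.3 CPM in Lyz2-cre naive, 1 h and 3 h brains, against 18.6, 46.0 and 17.8 CPM in fl/fl, from 3 to 16 UMIs per library. A Plau UMI was present in 10.8% of those cells and in 6.52% of microglia-like cells (1.74% and 2.03% thinned).

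**Figure D3:**
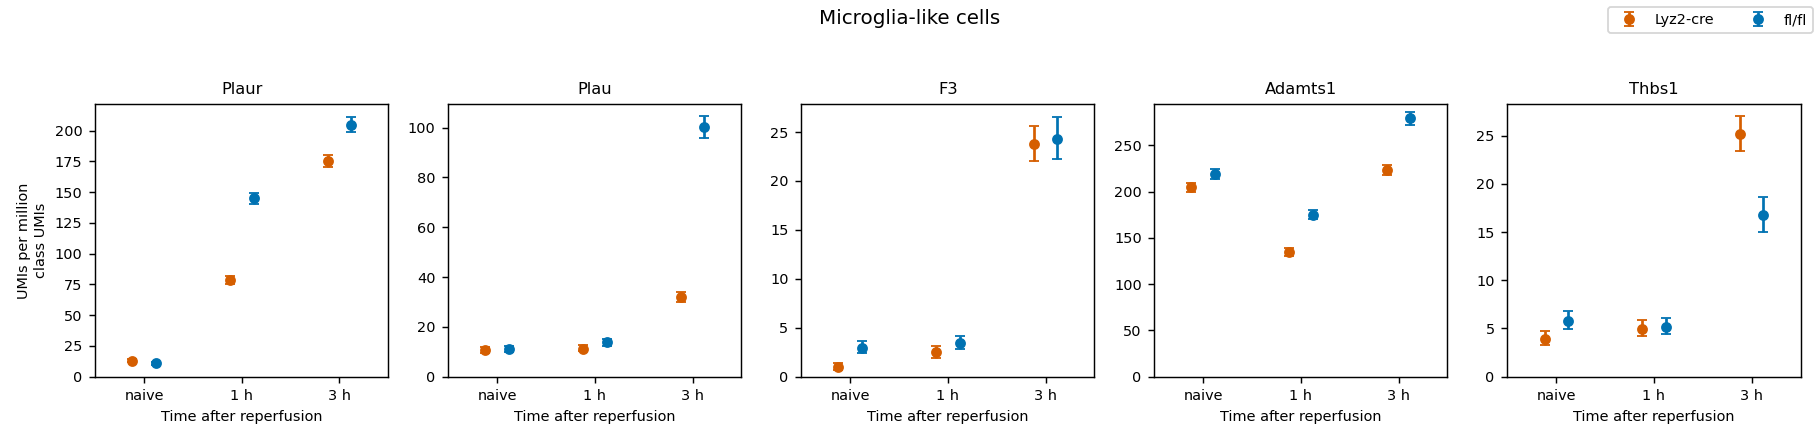
Levels in microglia-like cells (vertical axis, CPM of the class, each panel on its own scale from 0) by time after reperfusion (horizontal axis), 1 point per library with its exact 95% Poisson interval, Lyz2-cre left of fl/fl. Plaur is higher at 1 h and 3 h than in naive brains, Plau, F3 and Thbs1 are high at 3 h, and Adamts1 is at its lowest at 1 h.

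F3, tissue factor, rose in microglia-like cells at 3 h. It was at 0.988, 2.49 and 23.7 CPM in Lyz2-cre naive, 1 h and 3 h brains, against 2.97, 3.47 and 24.3 CPM in fl/fl. The 3 h libraries lay close together and far above the other 4. At 3 h the log2 fold change was 3.76 ± 0.33 against naive (adjusted p = 0.000597) and 3.02 ± 0.31 against 1 h (adjusted p = 0.00103), and both held in all 13 alternatives. The value against naive was 3.16 without Lyz2-cre naive and 4.54 without fl/fl naive. At 1 h against naive it was 0.74 ± 0.38 (adjusted p = 0.215), and passed without fl/fl naive (1.59, adjusted p = 0.0320), without fl/fl 3 h (0.76, adjusted p = 0.00174) and without Lyz2-cre 3 h (0.76, adjusted p = 0.00202). At 3 h, 4.62% of Lyz2-cre and 5.49% of fl/fl microglia-like cells had an F3 UMI (1.52% and 1.57% thinned), against 0.524% and 1.46% in naive brains. None of 1202 T cell-like and 863 B cell-like cells had one, which allows shares of up to 0.25% and 0.348%.

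F3 was also counted in neutrophil-like cells, with 7, 10 and 62 UMIs in Lyz2-cre naive, 1 h and 3 h brains, against 4, 9 and 48 UMIs in fl/fl. These counts gave 4.29, 2.20 and 22.6 CPM in Lyz2-cre and 6.04, 9.51 and 14.2 CPM in fl/fl, so that both 3 h libraries exceeded the other 4. At 3 h the difference on the log2 scale was 2.13 ± 0.57 against naive (adjusted p = 0.0177) and 2.25 ± 0.52 against 1 h (adjusted p = 0.0109). The first was lost without fl/fl naive (2.20, adjusted p = 0.0918) and without Lyz2-cre 3 h (1.21, adjusted p = 0.178). The second was lost without Lyz2-cre 1 h (1.08, adjusted p = 0.252) and without Lyz2-cre 3 h (1.32, adjusted p = 0.12). Without fl/fl 3 h the values were 2.88 and 2.99 (adjusted p = 1.61e-05 and 6.16e-07), and without fl/fl 1 h the second was 3.19 (adjusted p = 2.43e-06).

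F10, the zymogen of factor Xa, was a gene of monocyte-like cells. It was at 109, 218 and 357 CPM in Lyz2-cre naive, 1 h and 3 h brains, against 90.5, 210 and 302 CPM in fl/fl. The 3 times did not overlap. It changed on the log2 scale by 1.17 ± 0.15 at 1 h against naive (adjusted p = 0.00447), 1.92 ± 0.14 at 3 h against naive (adjusted p = 1.38e-05) and 0.75 ± 0.13 at 3 h against 1 h (adjusted p = 0.00378). The last was lost without Lyz2-cre 3 h (0.71, adjusted p = 0.0549), while both differences from naive held in all 14 alternatives. Microglia-like cells had 0 to 18 F10 UMIs per library, and T cell-like and B cell-like cells had none, as for F3.

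F13a1, the transglutaminase subunit of factor XIII, was at 329, 731 and 1362 CPM in Lyz2-cre monocyte-like cells of naive, 1 h and 3 h brains, against 360, 581 and 1161 CPM in fl/fl. Here too the times did not overlap. Fitted differences on the log2 scale were 1.00 ± 0.14 at 1 h against naive (adjusted p = 0.00977) and 2.06 ± 0.14 at 3 h against naive (adjusted p = 8.73e-06). The 3 h step from 1 h was 1.07 ± 0.14 (adjusted p = 0.000694). F13a1 was also present in border-associated macrophage-like cells of every library, at 276, 327 and 405 CPM in Lyz2-cre and 240, 296 and 308 CPM in fl/fl naive, 1 h and 3 h brains. That class held 40 to 151 cells per library, and its levels are described without a test. A UMI of F13a1 was present in 49.4% of border-associated macrophage-like cells (22.004% thinned), against 0.166% of T cell-like cells.

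Fn1, fibronectin, had 586, 842 and 1240 CPM in Lyz2-cre monocyte-like cells of naive, 1 h and 3 h brains, against 519, 693 and 1004 CPM in fl/fl. The 3 h libraries lay above the 1 h libraries, and those above the naive ones. At 3 h against naive the log2 difference was 1.21 ± 0.12 (adjusted p = 5.80e-05). At 1 h it was 0.54 ± 0.12 (adjusted p = 0.0530), which passed without fl/fl naive (0.61, adjusted p = 0.0240), without fl/fl 1 h (0.58, adjusted p = 0.0201) and with a stricter cell filter (0.77, adjusted p = 0.0209). The step from 1 h to 3 h, 0.67 ± 0.12 (adjusted p = 0.00343), was lost without Lyz2-cre 3 h (0.64, adjusted p = 0.0649).

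Vcan, versican, had its main increase between 1 h and 3 h. Its level in monocyte-like cells was 56.6, 92.4 and 793 CPM in Lyz2-cre naive, 1 h and 3 h brains, against 31.7, 146 and 778 CPM in fl/fl. The 3 h libraries were close to each other and far above the other 4. Its log2 fold change was 4.28 ± 0.29 at 3 h against naive (adjusted p = 4.39e-05; 4.99 without Lyz2-cre naive) and 2.87 ± 0.26 at 3 h against 1 h (adjusted p = 0.000399). At 1 h against naive, 1.40 ± 0.29 did not pass (adjusted p = 0.0583). With 1 library left out in turn the value lay between 0.98 (no fl/fl naive, adjusted p = 0.00815) and 2.09 (no Lyz2-cre naive, adjusted p = 4.21e-05), each under 0.05 in fits whose spread comes from the remaining times. It passed with all libraries under DESeq2 (1.43, adjusted p = 0.000349).

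Thbs1, thrombospondin 1, had the largest fitted increase over naive brains of the 7 genes tested in monocyte-like cells, at 1 h and at 3 h. It was at 52.2, 301 and 1772 CPM in Lyz2-cre naive, 1 h and 3 h brains, against 23.8, 258 and 1782 CPM in fl/fl. The times did not overlap and the 3 h libraries were nearly level. Its fitted log2 fold change was 2.90 ± 0.22 at 1 h against naive (adjusted p = 0.000347; 3.58 without Lyz2-cre naive), 5.71 ± 0.23 at 3 h against naive (adjusted p = 4.13e-07; 6.39 without Lyz2-cre naive) and 2.81 ± 0.19 at 3 h against 1 h (adjusted p = 1.57e-05). The 12 neutrophil markers, a class in which Thbs1 was also high, summed in monocyte-like cells to 267, 1990 and 1601 CPM in Lyz2-cre and 196, 291 and 3501 CPM in fl/fl naive, 1 h and 3 h brains. Of these markers, up to 4 of 12 were at 0 in a naive or 1 h library and none at 3 h. Their part in the Thbs1 levels was not tested. The 6 platelet or megakaryocyte markers summed to 0.789 to 5.77 CPM in monocyte-like cells, with 1 to 5 of the 6 at 0. At 3 h the sum was 1.45 CPM in Lyz2-cre and 0.789 CPM in fl/fl, against 1.67 CPM in Lyz2-cre and 5.66 CPM in fl/fl naive brains.

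The monocyte-like class changed in makeup: classical cells were 708 of 808 in Lyz2-cre 3 h and 106 of 250 in Lyz2-cre naive brains, and 456 of 510 in fl/fl 3 h and 60 of 116 in fl/fl naive brains. Classical cells (1613) were those with more UMIs of Ly6c2, Ccr2 and 4 other markers. Patrolling cells (549) were those with more UMIs of Spn, Ace, Treml4 and 3 others. The 9 genes were no part of the split, and classical and patrolling cells differed in some of them. Plau was rare in both (0.682% and 0.364% of cells), and so was F3 (0.558% and 0.182%). A UMI of F13a1 was present in 84.4% of classical cells (57.9% thinned) and 0.911% of patrolling cells, of Fn1 in 81.2% (53.2% thinned) and 3.28%, and of Vcan in 68.1% (34.9% thinned) and 0.729%. F10 was found in both, in 75.0% (24.8% thinned) and 34.2% (9.96% thinned), and so was Plaur, in 72.8% (25.2% thinned) and 61.0% (21.2% thinned). Classical cells were deeper, at a median of 7628 to 10459 UMIs per cell by library, against 3602.5 to 5186 in patrolling cells. All 4 of F10, F13a1, Fn1 and Vcan had a UMI in 864 of 1613 classical cells (53.6%) and in 1 of 3774 neutrophil-like cells. None of 549 patrolling cells and none of 37305 microglia-like cells had a UMI of all 4, which allows shares of such cells of up to 0.546% and 0.00804%. These counts were not thinned to equal depth, and a cell without a UMI may still express a gene.

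Within classical cells alone the fitted difference between 3 h and naive was smaller than in the whole class for Fn1, F13a1, Vcan, Thbs1 and F10 and larger for Plaur, without a test of these differences. Classical cells themselves lay in 2 clusters, 1409 of 1613 in a cluster with Saa3, Vcan and Fn1 among its leading genes and the others in a cluster led by Ace, Ear2 and Fabp4. The first held 658 of 708 classical cells of Lyz2-cre 3 h and 77 of 106 of Lyz2-cre naive brains, and 393 of 456 of fl/fl 3 h and 48 of 60 of fl/fl naive brains. Fn1 was at 1295 CPM in the first cluster and 25.1 CPM in the second, and the part of this makeup in the levels of classical cells was not tested. Fn1 was at 1050, 1166 and 1341 CPM in Lyz2-cre naive, 1 h and 3 h classical cells, against 799, 1010 and 1071 CPM in fl/fl. The fl/fl 3 h library lay near the Lyz2-cre naive library. For Fn1 the log2 fold change was 0.53 ± 0.13 at 3 h against naive (adjusted p = 0.0127), 0.30 ± 0.14 at 1 h against naive (adjusted p = 0.307) and 0.24 ± 0.13 at 3 h against 1 h (adjusted p = 0.244). F13a1 was at 592, 1016 and 1474 CPM in Lyz2-cre and 560, 849 and 1240 CPM in fl/fl, without overlap between times. It had a log2 fold change of 1.38 ± 0.14 at 3 h against naive (adjusted p = 2.32e-05), 0.74 ± 0.14 at 1 h (adjusted p = 0.0179) and 0.63 ± 0.14 at 3 h against 1 h (adjusted p = 0.00767). Vcan was at 102, 128 and 858 CPM in Lyz2-cre and 47.5, 214 and 831 CPM in fl/fl. The differences on the log2 scale were 3.58 ± 0.40 at 3 h against naive (adjusted p = 0.00371), 2.43 ± 0.37 at 3 h against 1 h (adjusted p = 0.0136) and 1.16 ± 0.41 at 1 h against naive (adjusted p = 0.272). In classical cells 1.55% of all genes tested passed at 1 h against naive, 20.1% at 3 h against naive and 15.9% at 3 h against 1 h.

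Thbs1, F10 and Plaur passed in classical cells in the same comparisons of times as in the whole class. Thbs1 was at 90.1, 415 and 1911 CPM in Lyz2-cre naive, 1 h and 3 h classical cells, against 37.0, 359 and 1898 CPM in fl/fl. F10 was at 128, 269 and 375 CPM in Lyz2-cre, against 109, 249 and 314 CPM in fl/fl, and Plaur at 183, 253 and 470 CPM in Lyz2-cre, against 173, 352 and 410 CPM in fl/fl. For all 3 genes both 3 h libraries lay above both naive ones, with log2 fold changes of 5.04 ± 0.26 for Thbs1 (adjusted p = 7.48e-07), 1.68 ± 0.16 for F10 and 1.45 ± 0.18 for Plaur. In patrolling cells, 52 to 140 per library, Thbs1 was at 5.11, 7.47 and 97.04 CPM in Lyz2-cre and 0, 41.7 and 87.4 CPM in fl/fl. F10 there was at 77.9, 82.2 and 146 CPM in Lyz2-cre and 54.3, 122 and 133 CPM in fl/fl, and Plaur at 212, 289 and 248 CPM in Lyz2-cre and 268, 359 and 194 CPM in fl/fl, with 3 h libraries on both sides of naive ones. No test was run on patrolling cells.

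**Figure D4:**
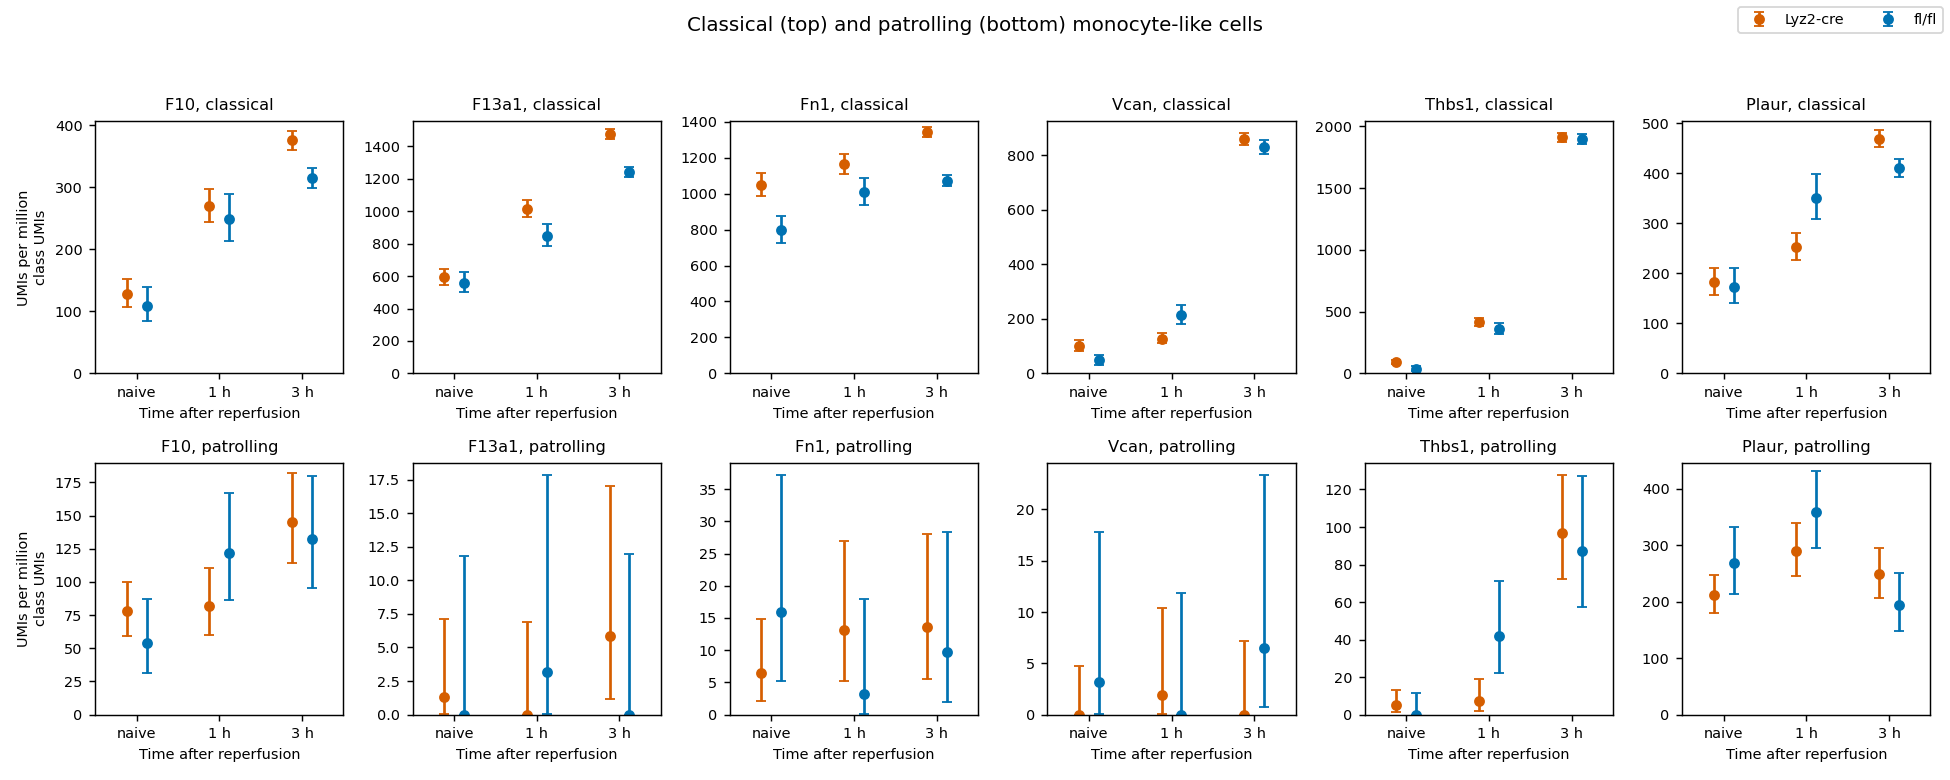
Levels in classical (top row) and patrolling (bottom row) monocyte-like cells (vertical axis, CPM, each panel on its own scale from 0) by time (horizontal axis), 1 point per library with its exact 95% Poisson interval, Lyz2-cre left of fl/fl. In classical cells Vcan and Thbs1 are far higher at 3 h than before, F10 and F13a1 climb at both steps, and Fn1 is already high in naive brains.

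In neutrophil-like cells Thbs1 was at 224, 1495 and 2049 CPM in Lyz2-cre naive, 1 h and 3 h brains, against 228, 1260 and 844 CPM in fl/fl. All 4 libraries of the later times lay above both naive libraries, and at 3 h the level was above that of 1 h in Lyz2-cre and below it in fl/fl. Over naive brains Thbs1 had log2 fold changes of 2.73 ± 0.30 at 1 h (adjusted p = 0.00153) and 2.84 ± 0.31 at 3 h (adjusted p = 7.22e-05). At 3 h against 1 h the value was 0.12 ± 0.28 (adjusted p = 0.784). A Thbs1 UMI was present in 35.0%, 73.3% and 51.1% of Lyz2-cre neutrophil-like cells and in 29.9%, 63.3% and 29.8% of fl/fl ones at the 3 times (14.3%, 55.5% and 41.8%, and 11.4%, 47.7% and 22.3%, thinned). Over all libraries it was present in 49.5% of neutrophil-like cells (36.9% thinned), at a median of 2250.5 to 4205 UMIs per cell by library, and in 1.16% of T cell-like cells (0.254% thinned).

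Neutrophil-like cells came in a larger cluster of 3057 cells and a smaller one of 717 cells that had the secondary granule genes Ltf, Lcn2, Ngp and Camp among its 10 leading genes. The smaller cluster held 158 of 303 Lyz2-cre naive, 394 of 946 Lyz2-cre 1 h and 30 of 999 Lyz2-cre 3 h cells, and 61 of 154, 43 of 316 and 31 of 1056 in fl/fl. In the larger cluster alone, Thbs1 was at 168, 2069 and 2143 CPM in Lyz2-cre and 83.8, 1423 and 849 CPM in fl/fl, and Plaur at 207, 858 and 1099 CPM in Lyz2-cre and 186, 885 and 777 CPM in fl/fl. The differences from naive were larger there: for Thbs1 4.11 ± 0.30 at 1 h (log2, adjusted p = 1.16e-05) and 3.96 ± 0.30 at 3 h (adjusted p = 5.74e-06), and for Plaur 2.41 ± 0.27 at 1 h (adjusted p = 0.000387) and 2.70 ± 0.27 at 3 h (adjusted p = 2.22e-05). Of all genes tested in that cluster, 1.52% passed at 1 h and 13.8% at 3 h. F3, at 7.30, 3.24 and 24.2 CPM in Lyz2-cre and 10.9, 7.72 and 14.9 CPM in fl/fl, passed at 3 h against 1 h (2.16 ± 0.55, adjusted p = 0.0243; 8.75% of all genes) but not at 3 h against naive (1.57 ± 0.63, adjusted p = 0.117).

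**Figure D5:**
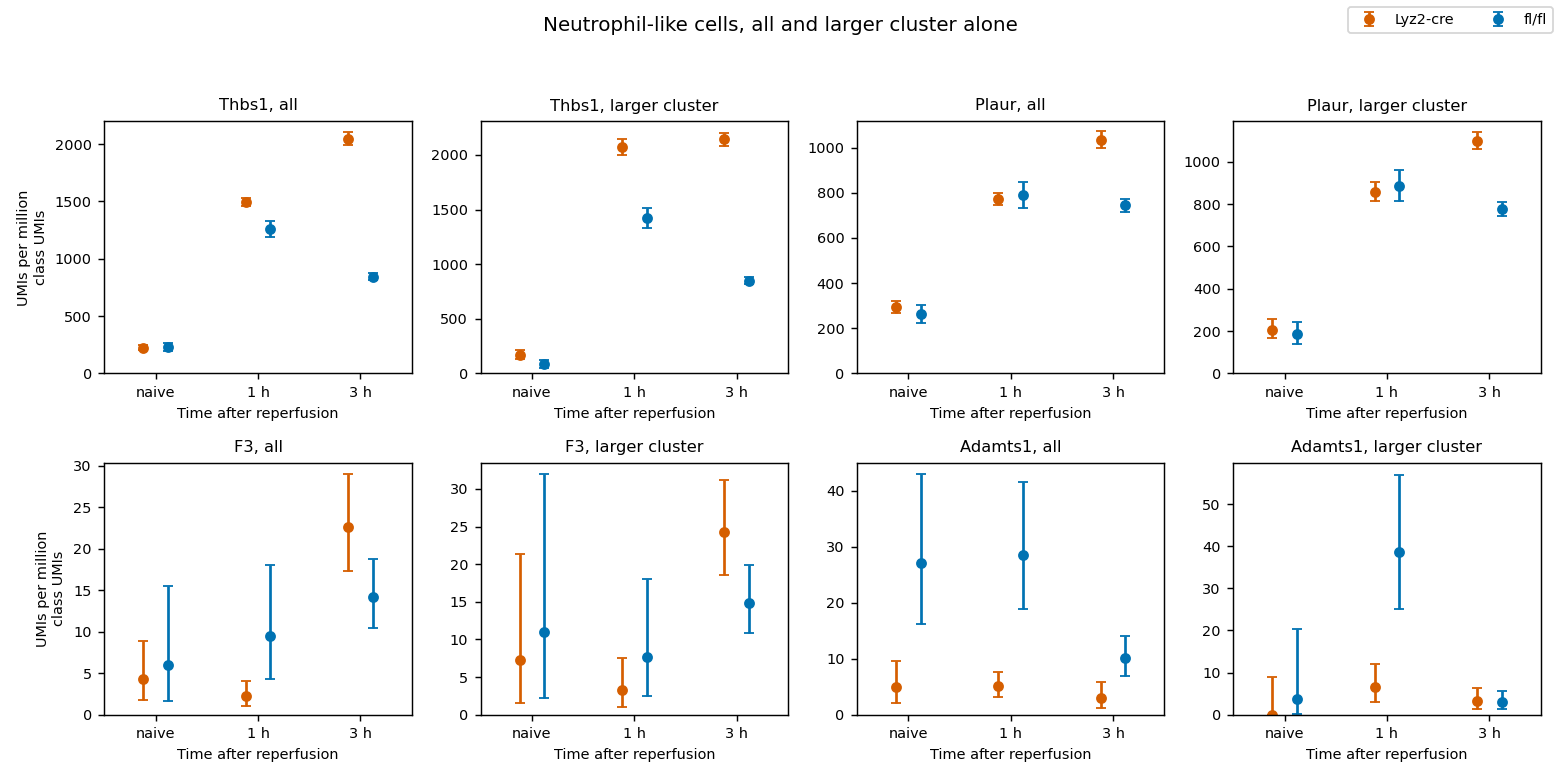
Levels of Thbs1, Plaur, F3 and Adamts1 in all neutrophil-like cells and in the larger cluster alone (vertical axis, CPM, each panel on its own scale from 0) by time (horizontal axis), 1 point per library with its exact 95% Poisson interval, Lyz2-cre left of fl/fl. Thbs1 and Plaur are above naive at both later times in either view, and at 3 h their Lyz2-cre points are above their fl/fl points.

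Adamts1, the versican-cleaving protease, was already counted in naive microglia-like cells, with fitted differences between times of at most 0.68 on the log2 scale. It was at 205, 135 and 224 CPM in Lyz2-cre naive, 1 h and 3 h brains, against 219, 175 and 279 CPM in fl/fl. In each genotype the 1 h library was lowest and the 3 h library highest, and the Lyz2-cre library was below the fl/fl library at each time. The fitted differences were −0.36 ± 0.09 on the log2 scale at 1 h against naive (adjusted p = 0.0146), 0.32 ± 0.09 at 3 h against naive (adjusted p = 0.0130) and 0.68 ± 0.09 at 3 h against 1 h (adjusted p = 0.000248). Only the last held in all 13 alternatives. The call of a decrease at 1 h was lost without Lyz2-cre 1 h (−0.31, adjusted p = 0.157) or Lyz2-cre naive (−0.23, adjusted p = 0.191). It was lost as well without the 1 h library of fl/fl (−0.40, adjusted p = 0.0726) or its naive library (−0.47, adjusted p = 0.0514). The call of an increase at 3 h was lost without fl/fl 3 h (0.24, adjusted p = 0.0667) or fl/fl naive (0.16, adjusted p = 0.273). A UMI of Adamts1 was present in 16.9% of microglia-like cells (9.85% thinned), against 1.08% of T cell-like cells (0.339% thinned).

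In monocyte-like cells Adamts1 had 23, 19 and 8 UMIs in Lyz2-cre naive, 1 h and 3 h brains, against 0, 2 and 12 UMIs in fl/fl. No comparison of times passed (−0.19 ± 0.89 at 1 h, adjusted p = 0.943, and −1.83 ± 0.91 at 3 h against naive, adjusted p = 0.177). It passed at 3 h against naive without fl/fl naive (−2.55, adjusted p = 0.00870) and without fl/fl 3 h (−3.07, adjusted p = 0.00555), and at 3 h against 1 h (−1.64 ± 0.92, adjusted p = 0.252) without fl/fl naive (−1.76, adjusted p = 0.0427) and without fl/fl 3 h (−2.98, adjusted p = 0.0139). In neutrophil-like cells it was at 4.90, 5.05 and 2.92 CPM in Lyz2-cre and 27.2, 28.5 and 10.0 CPM in fl/fl. The log2 differences were 0.17 ± 0.41 at 1 h against naive (adjusted p = 0.933), −0.84 ± 0.43 at 3 h against naive (adjusted p = 0.161) and −1.02 ± 0.39 at 3 h against 1 h (adjusted p = 0.0779), the last turning to 1.06 with likely doublets kept (adjusted p = 0.0257). The 11 microglia markers summed there to 612, 1383 and 562 CPM in Lyz2-cre and 3160, 3114 and 357 CPM in fl/fl, with none at 0, and their part in the Adamts1 level was not tested. In the larger neutrophil-like cluster Adamts1 was at 0, 6.48 and 3.18 CPM in Lyz2-cre and 3.65, 38.6 and 2.91 CPM in fl/fl, too low for the filter.

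In microglia-like cells Thbs1 and the monocyte genes were low but higher at 3 h. Thbs1 was at 3.95, 4.99 and 25.2 CPM in Lyz2-cre naive, 1 h and 3 h brains, against 5.80, 5.17 and 16.8 CPM in fl/fl. Its log2 differences were 2.19 ± 0.25 at 3 h against naive (adjusted p = 0.000810), 2.02 ± 0.25 at 3 h against 1 h (adjusted p = 0.00105) and 0.17 ± 0.27 at 1 h (adjusted p = 0.689). Both 3 h libraries exceeded the other 4. A Thbs1 UMI was present in 1.81% to 5.76% of microglia-like cells, depending on the library. T cell-like cells ranged by library from 0 to 9.01 CPM of Thbs1, with a UMI in 0% to 4.70% of cells. Whether the increase is particular to microglia-like cells was not tested. Fn1 was at 0.395, 0.727 and 3.50 CPM in Lyz2-cre and 0.394, 0.295 and 2.31 CPM in fl/fl, and F13a1 at 0.165, 0.485 and 1.97 CPM in Lyz2-cre and 0.0358, 0.196 and 1.63 CPM in fl/fl, where naive brains had 5 F13a1 UMIs in Lyz2-cre and 1 in fl/fl. Fn1 passed at 3 h against naive (2.94 ± 0.36, adjusted p = 0.000161) and against 1 h (2.49 ± 0.34, adjusted p = 0.000331). F13a1 passed at 3 h against naive (4.19 ± 0.53, adjusted p = 0.000194; 5.23 without Lyz2-cre naive, 5.002 without Lyz2-cre 3 h) and against 1 h (2.39 ± 0.43, adjusted p = 0.00137; 3.16 without Lyz2-cre 3 h). F13a1 at 1 h against naive was at 1.80 ± 0.67 (adjusted p = 0.0716; 1.85 and 0.0332 without fl/fl 3 h, 1.84 and 0.0401 without Lyz2-cre 3 h), and Fn1 at 0.45 ± 0.44 (adjusted p = 0.481).

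Vcan in microglia-like cells was at 0.198, 0.346 and 1.22 CPM in Lyz2-cre and 0.358, 0.426 and 0.817 CPM in fl/fl naive, 1 h and 3 h brains. It passed at 3 h against naive (1.98 ± 0.47, adjusted p = 0.00644), though not under DESeq2 (adjusted p = 0.0618), without Lyz2-cre naive (1.43, adjusted p = 0.119) or without Lyz2-cre 3 h (1.42, adjusted p = 0.0867). Its step between 3 h and 1 h (1.39 ± 0.44, adjusted p = 0.0255) was lost in 6 of 13 alternatives, namely DESeq2 (adjusted p = 0.208) and each library left out but fl/fl 3 h (adjusted p = 0.0509 to 0.314). It was 0.84 without Lyz2-cre 3 h. At 1 h against naive it was at 0.59 ± 0.53 (adjusted p = 0.448). The whole class held 118 UMIs of F13a1, 204 of Fn1 and 92 of Vcan, in 0.308%, 0.456% and 0.225% of its cells (0.108%, 0.119% and 0.0487% thinned), against 0.166% of T cell-like cells for each. The T cell-like shares were uneven over libraries. In Lyz2-cre 3 h brains Fn1 and Vcan were each at 3.56 CPM there, in 2.08% of 96 T cell-like cells, and F13a1 was at 1.78 CPM, in 1.04%. At 3 h these microglia-like levels were thus not clearly above those of T cell-like cells. The 13 monocyte markers summed in microglia-like cells to 34.5, 46.8 and 50.3 CPM in Lyz2-cre and 31.7, 30.2 and 46.3 CPM in fl/fl, with none at 0, and their part in these levels was not tested.

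The microglia-like class was made of different clusters at different times, and the 9 genes, which were not used to make them, were uneven among them. Clusters led by P2ry12, Tmem119 and Gpr34 held most naive cells, a cluster with Sparc, Olfml3 and Tmem119 beside the calcineurin regulator Rcan1 and a P2ry12-led cluster held most 1 h cells, and most 3 h cells lay in 5 others. A cluster led by the heat shock genes Hspb1, Hspa1a and Hspa1b (3430 cells, of which 1734 in Lyz2-cre 3 h, 1058 in fl/fl 3 h and none in naive brains) had Adamts1 at 516 CPM, Thbs1 at 37.7 CPM and Plau at 71.8 CPM, but Plaur at 36.0 CPM. A cluster led by Gdf15, Rcan1, Pmp22 and Il1a (3170 cells: 1582 and 1420 at 3 h) had Plaur at 500 CPM, Plau at 129 CPM and F3 at 54.7 CPM, each the highest of the microglia-like clusters. The Rcan1 cluster of 1 h (5735 cells: 2457 in Lyz2-cre 1 h and 2907 in fl/fl 1 h) had Plaur at 231 CPM and Adamts1 at 249.2 CPM, whereas the P2ry12-led cluster of 1 h (7297 cells: 3814 and 2453) had them at 12.5 and 60.8 CPM. A cluster led by Ccl12, Gpr84 and Spint1 (1008 cells, none in naive brains) had F3 at 37.2 CPM and Plaur at 175 CPM with Plau at 2.91 CPM. These are descriptions of clusters of the same cells, with no test.

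The smaller classes are described without a test. In border-associated macrophage-like cells Plaur was at 20.7, 133 and 297 CPM in Lyz2-cre naive, 1 h and 3 h brains, against 5.83, 457 and 384 CPM in fl/fl, and Thbs1 at 3.77, 150 and 675 CPM, against 5.83, 345 and 921 CPM. For both genes all 4 libraries after reperfusion lay above both naive ones. The class was made of different clusters before and after reperfusion: a cluster of 121 cells led by Pf4, Ccl24 and Ccl7 held 46 of 63 cells of Lyz2-cre 3 h and 2 of 151 of Lyz2-cre naive brains, and 45 of 53 of fl/fl 3 h and 0 of 117 of fl/fl naive brains. It carried 401 of 459 Plaur UMIs and 713 of 753 Thbs1 UMIs of the class. In conventional dendritic cell-like cells Plaur was at 16.0, 190 and 159 CPM in Lyz2-cre and 18.8, 296 and 364 CPM in fl/fl, and Thbs1 at 0, 122 and 99.3 CPM in Lyz2-cre and 0, 113 and 418 CPM in fl/fl. A cluster of 40 cells led by Ccl17, Ccl22 and Mgl2 held 157 of 263 Plaur UMIs and 164 of 171 Thbs1 UMIs of that class, with 17 cells in Lyz2-cre 3 h and 3 in Lyz2-cre naive brains, and 4 in fl/fl 3 h and 4 in fl/fl naive brains. Progenitor-like cells, with Elane, Prtn3 and Mpo as leading genes, held 16.6% of all F13a1 UMIs, 16.97% of those of Fn1 and 11.8% of those of F10. In them Fn1 was at 531, 496 and 1001 CPM in Lyz2-cre and 334, 697 and 8.41 CPM in fl/fl, and F13a1 at 567, 537 and 931 CPM in Lyz2-cre and 388, 626 and 0 CPM in fl/fl, so the fl/fl 3 h library of 17 cells stood apart. The Lyz2-cre 3 h library had 18 progenitor-like cells, so the levels of both 3 h libraries rest on few cells. In T cell-like cells Plaur lay between 0.770 CPM (Lyz2-cre naive) and 41.0 CPM (Lyz2-cre 3 h), and in B cell-like cells between 38.5 and 99.1 CPM.

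None of the 9 genes differed between Lyz2-cre and fl/fl by the edgeR test over the 3 times in any of the 3 classes: 0 of 8 in microglia-like cells (0.476% of all genes passed), 0 of 7 in monocyte-like cells (0.0335%) and 0 of 4 in neutrophil-like cells (0.0262%). At an unadjusted p under 0.05 the count was 1 in microglia-like cells (Adamts1), 1 in monocyte-like cells (Fn1) and 2 in neutrophil-like cells (Thbs1 and Adamts1). Over all genes tested, 1359 of 12804, 369 of 8963 and 438 of 7648 were under that p in the 3 classes, in that order. DESeq2 passed 1 gene in microglia-like cells and 0 in the other classes. The level of Adamts1 in microglia-like cells was below that of fl/fl in Lyz2-cre libraries of all 3 times (log2 difference −0.32 ± 0.07, adjusted p = 0.117), and the difference passed under DESeq2 (−0.33, adjusted p = 0.0362), without the filter on low counts (−0.31, adjusted p = 0.00986) and without fl/fl 3 h (−0.27, adjusted p = 0.0487). F3 in microglia-like cells (−0.54 ± 0.27, adjusted p = 0.542) passed without fl/fl 3 h (−0.96, adjusted p = 0.000726) and without Lyz2-cre 3 h (−0.96, adjusted p = 0.000897).

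In microglia-like cells Plau (−0.81 ± 0.50, adjusted p = 0.677) and Plaur (−0.40 ± 0.24, adjusted p = 0.642) had negative log2 differences, Lyz2-cre minus fl/fl. Fn1 (0.57 ± 0.30, adjusted p = 0.523) and F13a1 (0.61 ± 0.39, adjusted p = 0.609) had positive ones, and Thbs1 (0.00 ± 0.21) and Vcan (−0.07 ± 0.38) lay close to 0. In monocyte-like cells the log2 differences were 0.24 ± 0.10 for Fn1, 0.28 ± 0.16 for Thbs1, 0.17 ± 0.11 for F10, 0.13 ± 0.11 for F13a1, −0.11 ± 0.13 for Plaur, −0.05 ± 0.22 for Vcan and 1.04 ± 0.80 for Adamts1. Fn1 was higher in the Lyz2-cre library at each of the 3 times. In neutrophil-like cells they were 0.68 ± 0.23 for Thbs1 (adjusted p = 0.860; 1.07 ± 0.22 in the larger cluster, adjusted p = 0.50), 0.36 ± 0.20 for Plaur, −0.16 ± 0.45 for F3 and −2.07 ± 0.33 for Adamts1 (adjusted p = 0.0873). The Adamts1 value passed without the filter on low counts (−2.05, adjusted p = 0.000194), without Lyz2-cre naive (−2.01, adjusted p = 0.0143), without Lyz2-cre 1 h (−2.02, adjusted p = 0.0129), without fl/fl 3 h (−2.11, adjusted p = 0.000167) and without Lyz2-cre 3 h (−2.15, adjusted p = 5.26e-05). It stood beside the microglia markers given above.

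Other genes of the 3 systems were counted from lists of 19 further plasminogen system genes, 30 clotting genes and 49 matrix genes. Over all genes, 14% were higher and 12.9% lower at 1 h against naive in microglia-like cells, and 24.5% higher and 23.5% lower at 3 h. At 3 h against naive the shares were 14.2% higher and 12.6% lower in monocyte-like cells and 17.3% and 10.6% in neutrophil-like cells. Of 14 plasminogen system genes tested in microglia-like cells, 3 rose and 0 fell at 1 h against naive, and 3 rose and 2 fell at 3 h against naive, with a median log2 fold change of 0.18 at 3 h beside −0.02 over all genes. Those that rose at 1 h included Serpine2 (0.72), a serine protease inhibitor, and Itgb2 (0.33), an integrin subunit. At 3 h, Hgf (2.72), a growth factor related in sequence to plasminogen, had the largest increase. In monocyte-like cells 2 of 13 rose and 5 fell at 3 h (median −0.36 beside −0.02), among them Serpinb2, the inhibitor PAI-2, which rose (1.61), and Serpine2, which fell (−1.65). In neutrophil-like cells 1 of 11 rose (Plgrkt, 1.43) and 1 fell (Serpinb6a, −1.49; median −0.31 beside −0.07).

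Of the clotting genes, 5 of 14 rose in microglia-like cells at 1 h, led by Vkorc1 (0.64), the vitamin K epoxide reductase, and 2 rose and 2 fell at 3 h against naive (median −0.09 beside −0.02). At 3 h against 1 h, 1 rose and 7 fell, beside 25.3% higher and 22.1% lower over all genes, among them Vkorc1 (−0.97) and the gamma-glutamyl carboxylase Ggcx (−0.74). Thbd, thrombomodulin, was among those that rose, at 22 UMIs in Lyz2-cre 3 h and 20 in fl/fl 3 h, against 1 UMI in each of the other 4 libraries. In monocyte-like cells 2 of 9 rose at 3 h, F5 (2.06), the cofactor of factor Xa, and P4hb (0.80), and Gas6 fell (−2.58; median 0.35 beside −0.02). In neutrophil-like cells Thbd (3.38) and P4hb (1.37) rose and Pdia3 (−1.11) fell, 3 of 9 (median −0.53 beside −0.07). Of the matrix genes at 3 h, 10 of 29 rose and 4 fell in microglia-like cells (median 0.62 beside −0.02), led by Sdc4 (3.23), Tgm1 (2.69) and the hyaluronan receptor Cd44 (2.34). In monocyte-like cells 12 of 25 rose and 6 fell (median 0.65 beside −0.02), among them the syndecan Sdc4 (6.04) and the metalloprotease Mmp19 (6.13). In neutrophil-like cells 10 of 17 rose and 1 fell (median 1.08 beside −0.07), among them the transglutaminases Tgm1 (6.40) and Tgm2 (5.56). Timp1 in monocyte-like cells and Ecm1 in neutrophil-like cells had 0 UMIs in both naive libraries, and with them set to the bound that 3 UMIs over the naive libraries allow (3.81 and 3.02 on the log2 scale) the medians were the same. At 1 h, 7 of 29 matrix genes rose and 0 fell in microglia-like cells. In monocyte-like cells at 1 h, 1 of 25 matrix genes rose, Mmp8 (2.07, adjusted p = 0.00308), beside 0.937% higher over all genes. No list gene passed in neutrophil-like cells at 1 h, where 0.758% of all genes did. With so few calls over all genes, these counts do not set the lists apart. Between genotypes only Spp1 passed among these lists, lower in Lyz2-cre monocyte-like cells (−2.29, adjusted p = 0.0248), where 0.0335% of all genes passed. Spp1 was at 0.555, 2.95 and 22.1 CPM in Lyz2-cre and 2.26, 2.88 and 119 CPM in fl/fl naive, 1 h and 3 h brains.

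Across the 51 sums of a class in a library with at least 20 cells, the genes whose log2(CPM + 1) followed each of the 9 most closely among 8664 genes included others of the 9. F10 was closest to Plcb1 (Pearson r = 0.922), Vcan (0.911) and Fn1 (0.893), Fn1 to F10 (0.893), Ms4a8a (0.869) and F13a1 (0.860), and Vcan to F10 (0.911), Plcb1 (0.902) and Ms4a8a (0.891). F13a1 followed the scavenger receptor gene Msr1 (0.886), Thbs1 followed Il1rn (0.898), the interleukin 1 receptor antagonist, and Clec4d (0.896), and Plaur followed Tpd52 (0.824) and Thbs1 (0.821). Plau was closest to Snx24 (0.873), Adamts1 to Thrsp (0.820) and F3 to Tbc1d23 (0.801). The sums share libraries and depth, differ mainly by cell class and are not independent, so these values are a description.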

How the data were processed

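Per the submitters' processing notes, the authors used Cell Ranger 3.0.2 with build mm10. The deposited values are raw UMI counts per gene and barcode in 6 filtered matrices, without normalization. The 9 genes and the gene lists were chosen with earlier results of these data known.

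A minimum of 300 genes and a maximum of 10% mitochondrial UMIs per barcode left 50634 of 51005 barcodes. Scrublet's automatic threshold called only 11 doublets and was not used; 0.8% per 1000 barcodes with the highest scores were removed (3526). Cells were clustered without the 9 genes (2000 variable genes, 30 components, 15 neighbours, Leiden resolution 1). Clusters were named here from marker lists, at least 3 markers detected in 10% of cells being required, by a rule set after clusters were seen, so classes are rebuilt names. A monocyte-like cell was classical or patrolling by which of 2 marker sums was larger; 25 cells had equal sums and 124 lay within 2 UMIs of the split. Clusters mixing macrophage and dendritic markers were clustered again.

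Sums of UMIs by library and class entered the quasi-likelihood test of edgeR (TMM, filterByExpr, genotype plus time, 6 libraries, Benjamini-Hochberg threshold 0.05). SE is the absolute log2 fold change over the square root of F. The test was tried on simulated data. Alternatives were DESeq2, RLE factors, no count filter, each library left out, a stricter cell filter (500 genes, 5% mitochondrial), no doublet removal, the 9 genes kept in clustering, resolution 0.5, classical cells alone, and the larger neutrophil-like cluster alone, the last added after seeing the data. All 9 genes are named in each tested class; of each list, up to 3 genes with the largest changes past the threshold, and for each of the 9, up to 3 genes with the highest correlation of log2(CPM + 1) among genes reaching 30 CPM in 1 sum. The design text gives 0 h where titles say naive, and titles were followed. Shares of cells are also given with each cell thinned to 1000 UMIs. Tests used R 4.3.3 with edgeR 4.0.16, DESeq2 1.42.0 and limma 3.58.1. Clustering used scanpy 1.11.5 and igraph 0.11.9 in Python 3.11.15 (pandas 2.3.3, numpy 2.4.6, anndata 0.12.19, scipy 1.17.1), and figures matplotlib 3.10.9. A result on 1 list gene is not reported here.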

Additional observations from a re-analysis of the deposited data

Results flagged for a closer look

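In neutrophil-like cells the 2 genotypes moved in opposite directions between 1 h and 3 h for Thbs1. The log2 difference of 3 h over 1 h was 0.45 in Lyz2-cre (2049 CPM at 3 h against 1495 CPM at 1 h) and −0.58 in fl/fl (844 CPM at 3 h against 1260 CPM at 1 h). With 1 library for each combination of genotype and time, this difference between the genotypes was not tested. In the larger neutrophil-like cluster alone the levels were 2143 CPM at 3 h against 2069 CPM at 1 h in Lyz2-cre, and 849 CPM at 3 h against 1423 CPM at 1 h in fl/fl. No group had the 4 libraries needed to look for a single library that stands apart.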

How the results depend on the processing

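Of the values of the 9 genes, 541 under changed processing and 370 with a library left out kept direction and side of the threshold. In the same order, 13 and 36 newly passed it, 5 and 27 no longer did and 13 and 23 reversed. The cause was not tested. Leaving out 1 library gave 1 to 5 genes passing (2 with all) at 1 h against naive in microglia-like, 4 to 5 (3) in monocyte-like and 1 to 2 (2) in neutrophil-like cells, 3 to 7 (6) and 0 to 2 (1) at 3 h against 1 h in monocyte-like and neutrophil-like cells, and 0 to 2 (0) and 0 to 1 (0) between genotypes in microglia-like and neutrophil-like cells. Without the filter on low counts 6 passed at 1 h in monocyte-like cells, 2 at 3 h against 1 h in neutrophil-like cells, and 1 between genotypes in each of microglia-like and neutrophil-like cells. DESeq2 passed 1 between genotypes in microglia-like cells, the stricter cell filter 5 at 1 h in monocyte-like cells, and keeping all barcodes 3 at 3 h against 1 h in neutrophil-like cells. No called value reversed.

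Reversals, all of values that had not passed, were as follows in log2. With 1 library left out in turn, the 1 h values against naive ranged from −0.17 to 0.81 for Plau, −0.24 to 0.64 for Thbs1 and −0.12 to 0.82 for Fn1 in microglia-like cells and from −0.96 to 1.11 for F3 in neutrophil-like cells. Adamts1 in monocyte-like cells ranged from −1.47 to 7.12 at 1 h, −3.07 to 5.37 at 3 h against naive and −2.98 to 1.36 at 3 h against 1 h, and Thbs1 in neutrophil-like cells from −0.24 to 0.46 at 3 h against 1 h. Between genotypes Thbs1 ranged from −0.33 to 0.25 and Vcan from −0.56 to 0.16 in microglia-like cells, Plaur from −0.27 to 0.058 and Vcan from −0.29 to 0.22 in monocyte-like cells, and F3 from −1.14 to 0.40 in neutrophil-like cells. The Thbs1 genotype value in microglia-like cells was −0.044 with DESeq2, −0.0065 with RLE factors and −0.015 with all barcodes kept. Adamts1 in monocyte-like cells gave 0.082 at 1 h with DESeq2, and with all barcodes kept 0.62 at 1 h, 0.90 at 3 h against naive and 0.28 at 3 h against 1 h. With all barcodes kept, Adamts1 in neutrophil-like cells gave −0.50 at 1 h, 0.56 at 3 h against naive and 1.06 at 3 h against 1 h (adjusted p = 0.0257), and Thbs1 gave −0.19 at 3 h against 1 h. In the larger neutrophil-like cluster Thbs1 gave −0.15 at 3 h against 1 h and F3 0.12 between genotypes. No paired analysis was possible because the labels carry no replicate numbers and each combination of genotype and time has 1 library. The filter on low counts left F10 in microglia-like cells (36 UMIs in all) and Plau and F3 in monocyte-like cells without a test. Fits without 1 library have a single library at that time, which is assumed to vary like the others.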
